A study of Mus musculus with 18 samples.

Results

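*Ctsk*, *Acp5*, *Mmp9*, *Car2*, *Slc4a2*, *Calcr*, *Oscar*, *Itgb3*, *Dcstamp* and *Ocstamp* are 10 genes through which osteoclasts resorb bone and their precursors fuse. They were chosen by name, and each matched 1 of the 38243 genes counted in every library. All 10 were kept by the filter on low values, which asked for more than 1 FPKM (fragments scaled by exon length and library size) in at least 50% of the 6 libraries of at least 1 tissue. When the filter was applied within a single tissue, 10 members were kept in mandibular bone, 4 in Meckel's cartilage (MC) and 5 in condylar cartilage.

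Osteoclasts are multinucleated cells of the monocyte and macrophage lineage. Their precursors fuse under the signals CSF1 and RANKL, the mature cell seals itself to the bone surface by an integrin, and it then secretes acid, which dissolves the mineral, and proteases, which digest the collagen left behind. In the developing mandible they shape the bone while it forms, and cells of the same kind act where MC is removed.

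The libraries came from 6 female embryos on a C57BL/6 background at embryonic day 16.5 (E16.5). 3 embryos were *Fgfr2+/S252W*, heterozygous for the Apert syndrome substitution in fibroblast growth factor receptor 2, and 3 were *Fgfr2+/+* littermates without it, which served as controls. Mandibular bone, MC and mandibular condylar cartilage were cut from frozen sections by laser and gave 1 library per tissue and embryo, 18 in all, with 3 in each of the 6 groups and no pooling. The allele was carried throughout the body, in bone cells, cartilage cells and osteoclasts alike. Counts per gene do not separate the mutant from the normal *Fgfr2* transcript, so they do not check the genotype labels. *Fgfr2* was counted at 219 ± 13.1 CPM (counts scaled to library size with TMM factors; SD, n = 3) in *Fgfr2+/S252W* bone and at 221 ± 44.2 CPM in *Fgfr2+/+* bone.

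Between 8218548 and 15585778 fragments were counted per library, and mitochondrial genes took 19.4% to 38.1% of them. *Gm42418*, a gene named after its values were seen, took 24.1% to 39.4% in MC. It took 10.9% to 20.2% in condylar cartilage and 5.58% to 9.33% in bone. In MC, the totals therefore overstate most the fragments left for other genes. The labels of the tissues were set against marker genes. Bone libraries had a summed level of 10 osteoblast markers of 17060 to 34906 CPM, and condylar libraries one of 8 chondrocyte markers of 33716 to 42886 CPM. In MC the chondrocyte markers summed to between 1880 and 8521 CPM in 5 libraries and to 363 CPM in *Fgfr2+/+* replicate 1, which also had the most osteoblast marker counts among the MC libraries, 3968 CPM. This library stood apart from the other MC libraries for the osteoclast genes as well, with 2942 fragments on the 10 genes against 397 to 730. Osteoblast markers also exceeded chondrocyte markers in *Fgfr2+/S252W* MC replicate 2 (2365 against 1880 CPM) and replicate 3 (2864 against 1960 CPM). Results in MC that moved without *Fgfr2+/+* replicate 1 are given both ways.

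All 10 genes were read in every bone library, with 32676 to 49213 fragments on them in *Fgfr2+/S252W* and 13598 to 21413 in *Fgfr2+/+* bone. Compared per length, *Ctsk* had the highest level, 473 ± 70.4 FPKM in *Fgfr2+/S252W* and 279 ± 31.7 FPKM in *Fgfr2+/+* bone (SD, n = 3). *Mmp9* and *Acp5* came next, with 215 ± 44.7 and 177 ± 23.4 FPKM in *Fgfr2+/S252W* bone and 92.7 ± 27.4 and 99.1 ± 12.8 FPKM in *Fgfr2+/+* bone. Their order differed between the genotypes, but their ranges overlapped in both, so they are not ordered by these libraries. *Itgb3* and *Car2* followed with overlapping ranges, then *Dcstamp*, *Oscar* and *Ocstamp*, each overlapping the next, and in *Fgfr2+/+* bone *Itgb3* overlapped *Dcstamp* too. *Slc4a2* was below these, apart from *Ocstamp* in *Fgfr2+/S252W* and overlapping it in *Fgfr2+/+* bone. *Calcr* was the lowest in both genotypes, at 4.80 ± 1.17 and 1.74 ± 0.108 FPKM, and its range was apart from that of *Slc4a2*.

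The 250 bases before the transcription start of members in the RefSeq promoter table (GRCm38.p6, the assembly on which the counts were made) are shown for the most abundant member (*Ctsk*), for the enzyme that stains osteoclasts (*Acp5*) and for the 2 members past the threshold (*Calcr* and *Oscar*). They are shown because these members were all higher in mutant bone, as given after them. *Acp5* has 3 start sites in the table and *Calcr* 2, of which the one at the gene start of the authors' annotation was taken. *Slc4a2*, whose window is described without its sequence, has 2, and the one used lies 1395 bases from that gene start. The windows lie directly before the start, on the plus strand for *Ctsk* (chr3:95498960-95499209, ending 76 bases before the gene start in the authors' annotation) and on the minus strand for *Acp5* (chr9:22135747-22135996), *Calcr* (chr6:3764714-3764963) and *Oscar* (chr7:3616158-3616407). They are written 5′ to 3′ along the gene's strand, and capitals mark the letters GGAAA (the core of sites of NFAT factors) and GAGGAA (the core of sites of PU.1), read on either strand, so that TTTCC and TTCCTC are their reverse.
Ctsk: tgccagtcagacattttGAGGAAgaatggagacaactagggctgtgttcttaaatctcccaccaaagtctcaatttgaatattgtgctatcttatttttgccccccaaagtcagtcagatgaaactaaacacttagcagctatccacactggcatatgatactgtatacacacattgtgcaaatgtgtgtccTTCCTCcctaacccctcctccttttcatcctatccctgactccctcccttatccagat
Acp5: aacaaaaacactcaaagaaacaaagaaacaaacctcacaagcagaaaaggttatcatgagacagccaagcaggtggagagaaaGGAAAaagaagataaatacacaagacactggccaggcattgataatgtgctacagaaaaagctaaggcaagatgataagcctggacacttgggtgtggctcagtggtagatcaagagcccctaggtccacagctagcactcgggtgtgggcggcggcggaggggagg
Calcr: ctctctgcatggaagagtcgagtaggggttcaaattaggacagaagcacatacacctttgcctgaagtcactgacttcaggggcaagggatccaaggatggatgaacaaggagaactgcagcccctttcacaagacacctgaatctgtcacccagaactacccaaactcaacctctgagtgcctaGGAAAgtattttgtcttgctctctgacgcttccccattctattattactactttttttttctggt
Oscar: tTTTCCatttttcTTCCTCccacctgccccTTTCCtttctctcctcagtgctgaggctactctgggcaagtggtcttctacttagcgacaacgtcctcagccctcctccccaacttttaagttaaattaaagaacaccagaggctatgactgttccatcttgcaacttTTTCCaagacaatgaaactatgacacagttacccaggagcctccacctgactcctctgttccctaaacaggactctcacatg

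NFATc1 and PU.1 are transcription factors of the osteoclast lineage. GGAAA was found once in the *Acp5* window, once in that of *Calcr*, 3 times in that of *Oscar* and 3 times in that of *Slc4a2*, and not in that of *Ctsk*. GAGGAA was found at 2 places in the *Ctsk* window, and once each in those of *Oscar* and *Slc4a2*, where in *Slc4a2* it shares letters with a match of GGAAA. Over all 32841 windows of this length in the table, 55.6% hold GGAAA and 23.3% hold GAGGAA, so that a match in a single window is common. Neither TGANTCA (AP-1, in 6.75% of windows) nor CACGTG (an E-box, in 6.02%) was found in the 5 windows. No window was available here for *Mmp9*, *Car2*, *Itgb3*, *Dcstamp* and *Ocstamp*. A match of letters is a description and not a binding site.

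The comparison of mandibular bone between genotypes asks how the mutation changes gene expression where the jaw bone forms. Every member was higher in *Fgfr2+/S252W* bone, by 1.69-fold (*Ctsk*) to 2.69-fold (*Calcr*), and none of the 10 overlapped between genotypes, where 11.8% of the 13818 genes tested were higher in mutants without overlap. In the fit of all 18 libraries 2 members passed the threshold, *Calcr* and *Oscar* (limma-voom, Benjamini-Hochberg adjusted p below 0.05), where 0.181% of all genes passed and 0.13% were higher. The members' median log2 fold change was 1.06, beside 0.02 over all genes tested. In the fit of the 6 bone libraries alone 10 of 10 members passed, with adjusted p from 0.00917 to 0.0460, where 1.14% of all genes passed and 0.609% were higher. With edgeR's quasi-likelihood test on 18 libraries 0 members passed, where 0.0362% of all genes did (7 members had an unadjusted p below 0.05, as had 4.96% of all genes), and with DESeq2 1 did, where 0.138% of all genes did. These are bulk samples, in which more osteoclasts and more RNA per osteoclast cannot be told apart.

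**Figure D1:**
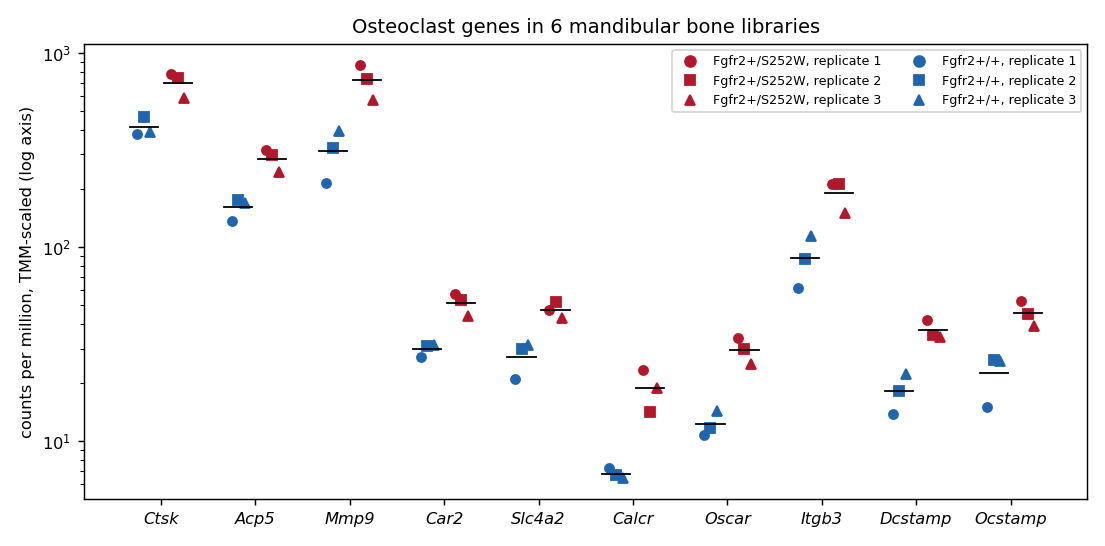
Level of each of the 10 genes in CPM (log axis) in the 6 mandibular bone libraries. Red points are *Fgfr2+/S252W* and blue points *Fgfr2+/+* libraries, the marker shape gives the replicate and black bars are means (n = 3). For every gene the 3 red points lie above the 3 blue points, and *Fgfr2+/S252W* replicate 3 is the lowest red point for 9 of the 10 genes.

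Among the enzymes that digest matrix, *Ctsk* (ENSMUSG00000028111, chromosome 3 from 95499286 to 95509362, GRCm38) encodes cathepsin K, the main collagenase of osteoclasts. Its levels were 782, 737 and 583 CPM in *Fgfr2+/S252W* replicates 1, 2 and 3 and 384, 468 and 389 CPM in *Fgfr2+/+* replicates 1, 2 and 3. The lowest mutant library was thus above the highest control library, and the log2 fold change was 0.76 (SE 0.17, 95% interval 0.40 to 1.11, adjusted p = 0.0927).

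*Mmp9* (ENSMUSG00000017737, chromosome 2 from 164940780 to 164955850) encodes gelatinase B, which cleaves denatured collagen. It was at 869, 730 and 568 CPM in the *Fgfr2+/S252W* and at 214, 324 and 397 CPM in the *Fgfr2+/+* libraries. All mutant libraries were above all control libraries, and the log2 fold change was 1.23 (SE 0.29, 95% interval 0.64 to 1.83, adjusted p = 0.1002).

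*Acp5* (ENSMUSG00000001348, chromosome 9 from 22126731 to 22135746) encodes tartrate-resistant acid phosphatase, the enzyme by which osteoclasts are stained. Values of 316, 296 and 243 CPM in *Fgfr2+/S252W* stood against 136, 174 and 169 CPM in *Fgfr2+/+* bone. The groups did not overlap, with a log2 fold change of 0.83 (SE 0.21, 95% interval 0.40 to 1.26, adjusted p = 0.142).

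For the supply of acid, *Car2* (ENSMUSG00000027562, chromosome 3 from 14886426 to 14900769) encodes carbonic anhydrase II, which makes protons and bicarbonate from carbon dioxide and water. Its levels were 57.2, 53.6 and 44.2 CPM in *Fgfr2+/S252W* and 27.2, 31.0 and 31.3 CPM in *Fgfr2+/+* bone. The control libraries lay close together below all mutant libraries, and the log2 fold change was 0.79 (SE 0.24, 95% interval 0.29 to 1.28, adjusted p = 0.303).

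*Slc4a2* (ENSMUSG00000028962, chromosome 5 from 24423837 to 24440950) encodes the anion exchanger that lets the bicarbonate out in exchange for chloride. It was at 47.6, 51.8 and 42.9 CPM against 20.8, 29.7 and 31.3 CPM, again without overlap, and the log2 fold change was 0.81 (SE 0.17, 95% interval 0.46 to 1.17, adjusted p = 0.0596). *Fastk* overlaps it on the other strand, with 103 to 687 fragments per library, and the counting ignored strand and dropped fragments shared by both genes, so the level of *Slc4a2* is uncertain to that extent.

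The 2 receptors passed the threshold. *Calcr* (ENSMUSG00000023964, chromosome 6 from 3685677 to 3764713) encodes the calcitonin receptor, through which calcitonin halts resorption, and is a marker of mature osteoclasts. It was at 23.3, 14.2 and 18.8 CPM in *Fgfr2+/S252W* and at 7.26, 6.68 and 6.45 CPM in *Fgfr2+/+* bone, from 317 to 451 and 92 to 115 fragments. The control libraries lay close together and the mutant libraries spread widely above them, and the gene rose by a log2 fold change of 1.43 (SE 0.25, 95% interval 0.91 to 1.95, adjusted p = 0.0304).

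*Oscar* (ENSMUSG00000054594, chromosome 7 from 3609813 to 3616157) encodes a collagen receptor that costimulates osteoclast differentiation. Levels of 34.0, 29.7 and 24.9 CPM in *Fgfr2+/S252W* stood against 10.8, 11.8 and 14.2 CPM in *Fgfr2+/+* bone. The gap between the groups exceeded the spread within either, and *Oscar* rose by a log2 fold change of 1.26 (SE 0.21, 95% interval 0.82 to 1.70, adjusted p = 0.0274).

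Adhesion was represented by *Itgb3* (ENSMUSG00000020689, chromosome 11 from 104608000 to 104670476), the β3 chain of the integrin by which osteoclasts hold to bone. It was at 211, 211 and 150 CPM in *Fgfr2+/S252W* and at 61.5, 86.8 and 114 CPM in *Fgfr2+/+* bone. Control replicate 3 came nearest to the mutants without reaching them, and the log2 fold change was 1.15 (SE 0.31, 95% interval 0.50 to 1.80, adjusted p = 0.197).

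The 2 fusion genes encode membrane proteins without which precursors stay mononuclear (*Dcstamp*, ENSMUSG00000022303, chromosome 15 from 39745932 to 39760934, and *Ocstamp*, ENSMUSG00000027670, chromosome 2 from 165393760 to 165400405). *Dcstamp* was at 42.2, 35.4 and 34.3 CPM in *Fgfr2+/S252W* and at 13.9, 18.1 and 22.1 CPM in *Fgfr2+/+* bone. *Ocstamp* was at 52.8, 45.1 and 39.2 CPM against 15.1, 26.3 and 25.9 CPM. Neither gene's groups overlapped, and both had a log2 fold change of 1.06 (*Dcstamp* SE 0.32, 95% interval 0.39 to 1.72, adjusted p = 0.297, and *Ocstamp* SE 0.27, 95% interval 0.49 to 1.63, adjusted p = 0.164).

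How many members passed in the fit of 18 libraries rested on single libraries. It was 0 without *Fgfr2+/+* replicate 1, *Fgfr2+/+* replicate 2, *Fgfr2+/S252W* replicate 1 or *Fgfr2+/S252W* replicate 3, 1 without *Fgfr2+/S252W* replicate 2, where 0.0146% of all genes passed, and 4 without *Fgfr2+/+* replicate 3, where 0.665% of all genes passed. All 10 log2 fold changes stayed above 0 in each of these fits, with medians from 0.84 to 1.21. In the fit of bone libraries alone, without *Fgfr2+/+* replicate 3, 10 of 10 members passed (chosen after seeing the data), where 11.4% of all genes did.

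The members also followed each other within a genotype. *Fgfr2+/S252W* replicate 3 was the lowest mutant library for 9 of 10 members and replicate 1 the highest for 8. Among the controls, *Fgfr2+/+* replicate 1 was the lowest for 9 members, and replicate 3 the highest for 6. Over the 6 bone libraries, which share the difference between genotypes, Pearson's r between members on log2 CPM had a median of 0.967 over 45 pairs (0.807 to 0.995), and over all 18 libraries, which share the difference between tissues too, a median of 0.884.

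Fragments were set against those of *Ctsk* in the same library, to describe which members differed by more than *Ctsk* did. *Ctsk* had the smallest fold change of the members in bone. The ratio to it needs no scaling between libraries and was chosen after seeing the data. *Acp5* was at 40.1 to 41.7 fragments per 100 *Ctsk* fragments in *Fgfr2+/S252W* and at 35.5 to 43.5 in *Fgfr2+/+* bone. *Car2* was at 7.27 to 7.58 against 6.62 to 8.05, and *Slc4a2* at 6.09 to 7.36 against 5.43 to 8.05. For these 3 genes the mutant range lay inside the control range, with differences between the means of the groups of no more than the spread of the controls.

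*Oscar* was at 4.03 to 4.36 fragments per 100 *Ctsk* fragments in *Fgfr2+/S252W* and at 2.51 to 3.66 in *Fgfr2+/+* bone. *Calcr* was at 1.93 to 3.23 against 1.43 to 1.89. For these 2 receptors the ranges did not overlap (exact two-sided permutation test, p = 0.1 for each unadjusted, the smallest value 3 against 3 libraries allow). The ranges of *Mmp9*, *Itgb3*, *Dcstamp* and *Ocstamp* overlapped, with means of 103 against 75.7, 27.1 against 21.3, 5.36 against 4.39 and 6.53 against 5.40, and p from 0.200 to 0.400. For all of these genes but *Slc4a2* the overlap rested on *Fgfr2+/+* replicate 3. Without it 8 of the 9 genes were apart, all but *Slc4a2*, and without any other single library 2 or 3 were, *Calcr* and *Oscar* each time. The share of all genes apart on this ratio was not computed, so these counts are a description.

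**Figure D2:**
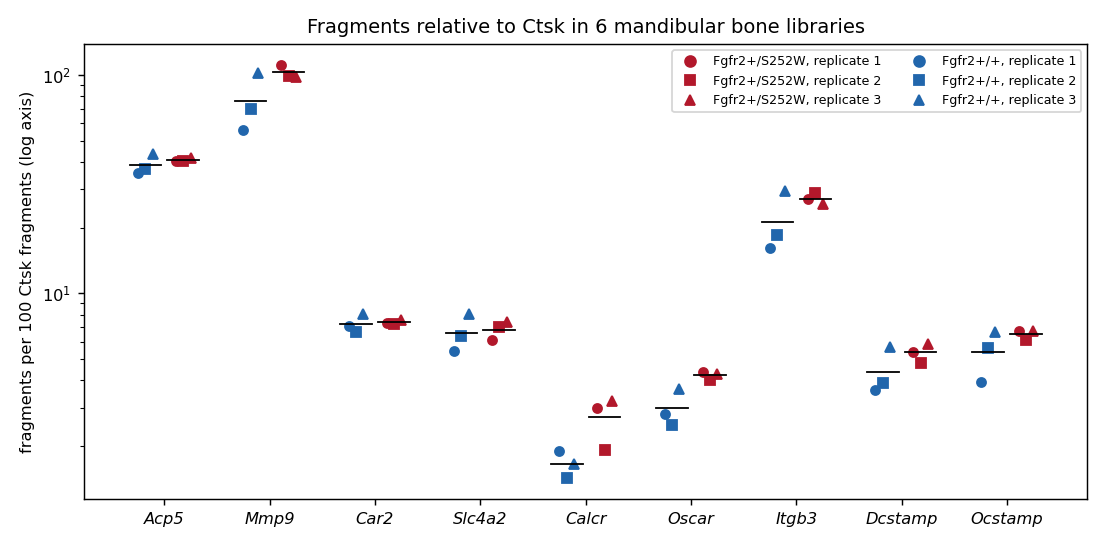
Fragments of each gene per 100 *Ctsk* fragments (log axis) in the 6 mandibular bone libraries, with red for *Fgfr2+/S252W*, blue for *Fgfr2+/+*, the marker shape for the replicate and black bars for means (n = 3). Red and blue points are apart for *Calcr* and *Oscar* and overlap for the other 7 genes, and *Acp5* and *Car2* have the narrowest red ranges.

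Markers of other cell types in the same bone libraries did not all move with the osteoclast genes. The summed level of 10 macrophage markers was 20.2 to 34.4 CPM in *Fgfr2+/S252W* and 59.6 to 73.4 CPM in *Fgfr2+/+* bone, the opposite direction. Of the 7 markers tested, *Lyz2*, lysozyme of macrophages and granulocytes, fell (17.5 ± 6.81 against 44.7 ± 3.60 CPM, log2 fold change -1.44, SE 0.28, adjusted p = 0.0460), and 3 fell in the fit of bone libraries alone. In either direction 0.181% of all genes passed in the fit of 18 libraries and 1.14% in that of bone alone. *Mrc1*, the mannose receptor, was at 2.29 ± 0.406 against 6.15 ± 2.39 CPM (adjusted p = 0.331). *Cd163*, a scavenger receptor named here after its values were seen, was the only tested macrophage marker with a log2 fold change above 0, at 4.69 ± 0.849 against 1.53 ± 0.755 CPM (adjusted p = 0.450).

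The erythroid markers, led by the globins *Hbb-bs* and *Hbb-bt*, summed to 327 to 622 CPM in *Fgfr2+/S252W* and 1254 to 1512 CPM in *Fgfr2+/+* bone. None of the 7 tested passed in the fit of 18 libraries, where all 7 had an unadjusted p below 0.05, as had 8.07% of all genes, nor with edgeR or DESeq2 (4 each at an unadjusted p below 0.05, as had 4.96% and 5.54% of all genes), and 5 fell in the fit of bone libraries alone. Skeletal muscle markers, led by *Ttn* and *Myh3*, summed to 57.0 to 124 CPM in *Fgfr2+/S252W* bone. In *Fgfr2+/+* bone they summed to 692 and 640 CPM in replicates 1 and 2 and to 124 CPM in replicate 3.

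Endothelial markers were at 246 to 261 against 213 to 294 CPM, and none of the 6 passed with limma (0 had an unadjusted p below 0.05), edgeR or DESeq2. Osteoblast markers, led by *Col1a1* and *Ibsp*, spanned 28485 to 31041 CPM in *Fgfr2+/S252W* and 17060 to 34906 CPM in *Fgfr2+/+* bone. Chondrocyte markers, led by *Col2a1* and *Hapln1*, spanned 293 to 394 against 89.5 to 239 CPM. Platelet markers were at 2.64 to 3.05 against 4.43 to 6.28 CPM, and no neutrophil or myeloid progenitor marker reached the filter. These last summed to 10.5 CPM in *Fgfr2+/+* replicate 1, the lowest control for 9 of the 10 members, and to 0.362 to 1.12 CPM in the other 5 bone libraries, with *Elane* and *Mpo*, named after their values were seen, at 0 in all 6.

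The *Fgfr2+/+* libraries differed among themselves. Mitochondrial genes took 20.4% of the counts of replicate 3, against 36.0% and 34.8% in the other controls and 23.4% to 23.6% in *Fgfr2+/S252W* bone. The 10 osteoclast genes summed to 1201 CPM in replicate 3, against 890 and 1177 CPM in the other controls and 1748 to 2435 CPM in *Fgfr2+/S252W* bone. Replicate 3 was the highest control for 6 members, and per 100 *Ctsk* fragments it lay within the mutant range for *Mmp9*, *Dcstamp* and *Ocstamp* and above it for *Acp5*, *Car2*, *Slc4a2* and *Itgb3*. *Gm42418* took 5.58% to 6.49% of the counts in *Fgfr2+/S252W* and 8.57% to 9.33% in *Fgfr2+/+* bone, without overlap. The part of mitochondrial share, of *Gm42418* and of the muscle, erythroid, macrophage, neutrophil and cartilage markers in the difference between genotypes was not tested.

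**Figure D3:**
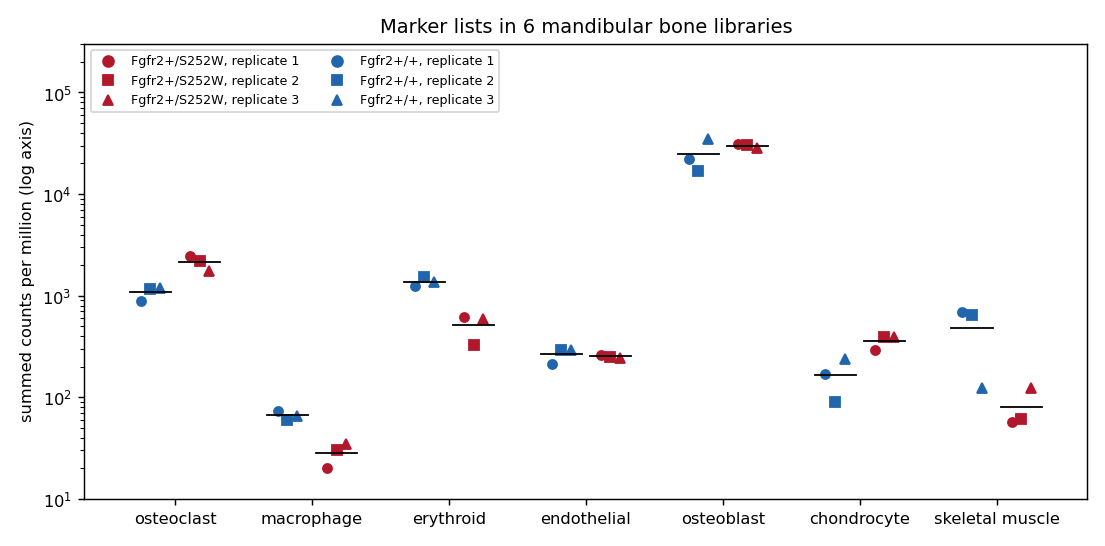
Summed CPM (log axis) of the marker genes of 7 cell types in the 6 mandibular bone libraries, with red for *Fgfr2+/S252W*, blue for *Fgfr2+/+*, the marker shape for the replicate and black bars for means (n = 3). The osteoclast genes and the chondrocyte markers are higher, the macrophage and erythroid markers lower in all 3 red libraries, and endothelial and osteoblast markers overlap.

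Other genes of the osteoclast's work were described by lists. Beside each list, 0.13% of all genes rose in the fit of 18 libraries and 0.609% in that of bone libraries alone. Of 10 genes of acid secretion, which pump protons and chloride across the ruffled border, 1 rose in the fit of 18 libraries and 3 in that of bone libraries alone. All 10 log2 fold changes were above 0, with a median of 0.64. *Atp6v1b2*, a subunit of the proton pump, rose from 138 ± 38.2 to 260 ± 42.5 CPM (log2 fold change 0.94, SE 0.19, adjusted p = 0.0490). *Atp6v0d2*, the pump subunit of osteoclasts that also serves fusion, was at 254 ± 41.2 against 136 ± 13.8 CPM (log2 fold change 0.90, adjusted p = 0.176, and 0.0187 with bone libraries alone).

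Of 10 genes of adhesion and cytoskeleton none passed in 18 libraries (5 had an unadjusted p below 0.05, beside 8.07% of all genes) and 1 rose in bone alone, with a median log2 fold change of 0.49. *Itgav*, the α chain that pairs with the product of *Itgb3*, was at 342 ± 29.5 against 228 ± 5.02 CPM (log2 fold change 0.58, SE 0.15, adjusted p = 0.156). *Rac1*, a small GTPase that every cell uses, was at 296 ± 9.26 against 304 ± 13.1 CPM.

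The 10 further fusion genes had a median log2 fold change of 0.40. None passed in 18 libraries (3 had an unadjusted p below 0.05, beside 8.07% of all genes), and *Atp6v0d2*, which this list shares with acid secretion, rose in bone alone. *Sh3pxd2a*, a scaffold of invadopodia, and *Adam12*, a metalloprotease, had log2 fold changes of -0.08 and 0.38.

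Lineage receptors and transcription factors had a median log2 fold change of 0.45 over 10 genes, with 1 that rose in 18 libraries and 2 in bone alone. *Csf1r*, the receptor for CSF1, rose from 59.2 ± 1.94 to 117 ± 18.6 CPM (log2 fold change 0.97, SE 0.20, adjusted p = 0.0490). *Nfatc1*, the master regulator of osteoclast differentiation, was at 131 ± 13.1 against 82.9 ± 17.2 CPM (log2 fold change 0.67, SE 0.18, adjusted p = 0.194).

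None of the 5 tested genes that signal to osteoclasts passed (1 had an unadjusted p below 0.05), nor did any of 6 other matrix-degrading enzymes (3 had one, beside 8.07% of all genes), and neither list gained a call in bone alone. *Csf1* was at 99.3 ± 14.9 against 67.6 ± 11.2 CPM (log2 fold change 0.55, SE 0.22, adjusted p = 0.515). *Ramp1*, whose product turns the calcitonin receptor into an amylin receptor, was at 13.3 ± 2.59 against 21.7 ± 6.25 CPM, the opposite direction to *Calcr* (adjusted p = 0.649). *Mmp13*, a collagenase made by osteoblasts and hypertrophic chondrocytes, was at 1371 ± 607 against 1286 ± 169 CPM, while *Mmp2* was at 343 ± 21.0 against 239 ± 23.4 CPM (adjusted p = 0.258). On 18 libraries edgeR and DESeq2 called none of the genes of these 6 lists.

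In MC the same comparison asks whether the difference extends to the cartilage beside the bone. No member passed the threshold (limma-voom, 5 with an unadjusted p below 0.05, as had 14.9% of all genes), as no gene did (0% of 13818). edgeR called *Dcstamp*, and 0.456% of all genes, and DESeq2 called *Acp5* and *Dcstamp*, and 3.19% of all genes. *Dcstamp* also passed without *Fgfr2+/+* replicate 3 (log2 fold change -6.09, adjusted p = 0.00410), where 0.4% of all genes did. The direction was opposite to bone for 8 of 10 members, with a median log2 fold change of -1.06, beside 0.06 over all genes tested. In the fit of MC libraries alone the filter kept only 4 members, of which 3 were below 0, with a median of -0.95. Without *Fgfr2+/+* replicate 1, the library that stood apart, the median was -0.24, with 7 of 10 below 0 and none past the threshold. In that fit the log2 fold change was -1.10 for *Acp5*, -0.77 for *Mmp9*, -3.45 for *Dcstamp* and -0.20 for *Ctsk*.

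*Acp5* was at 3.63, 2.79 and 4.73 CPM in *Fgfr2+/S252W* MC and at 30.3, 7.68 and 8.27 CPM in *Fgfr2+/+* MC (log2 fold change -1.96, SE 0.61, 95% interval -3.23 to -0.68, adjusted p = 0.161). *Mmp9* was at 29.7, 22.1 and 28.2 CPM against 110, 67.1 and 31.3 CPM (-1.27, SE 0.47, 95% interval -2.25 to -0.29, adjusted p = 0.223). For both genes all mutant libraries were below all control libraries, and for *Mmp9* control replicate 3 was just above the mutants.

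*Dcstamp* was counted at 0, 0 and 1 fragments in *Fgfr2+/S252W* MC and at 102, 34 and 1 fragments in *Fgfr2+/+* MC (log2 fold change -4.68, SE 1.27, 95% interval -7.33 to -2.03, adjusted p = 0.119). It was thus read in quantity in control replicates 1 and 2 only, and *Fgfr2+/S252W* replicate 3 and *Fgfr2+/+* replicate 3 had 1 fragment each. *Slc4a2* went the other way, with 22.2, 25.1 and 22.0 CPM in *Fgfr2+/S252W* and 14.6, 17.01 and 12.0 CPM in *Fgfr2+/+* MC, without overlap (log2 fold change 0.66, SE 0.26, 95% interval 0.12 to 1.21, adjusted p = 0.251).

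In all, 3 members were lower and 1 higher without overlap, where 6.16% of genes were lower and 6.66% higher in this way. The other 6 overlapped. *Ctsk* was at 25.3, 29.0 and 29.7 CPM in *Fgfr2+/S252W* and at 67.3, 27.4 and 36.7 CPM in *Fgfr2+/+* MC, so that the highest control set the difference of its means (log2 fold change -0.64, 95% interval -1.25 to -0.03, adjusted p = 0.316). Macrophage markers were at 81.9 to 114 CPM in *Fgfr2+/S252W* and 17.6 to 57.6 CPM in *Fgfr2+/+* MC, and in these libraries too were not highest where the osteoclast genes were.

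Condylar cartilage held few osteoclast transcripts, with 316 to 562 fragments on the 10 genes per library. No member passed the threshold (limma-voom, 1 with an unadjusted p below 0.05, as had 3.58% of all genes), nor with edgeR or DESeq2, and no gene passed in this fit (0% of 13818). All 10 members overlapped between genotypes, where 4.69% of genes were higher and 4.86% lower without overlap. *Ctsk* was at 11.4, 13.9 and 18.5 CPM in *Fgfr2+/S252W* and at 12.0, 10.6 and 13.6 CPM in *Fgfr2+/+* cartilage, with a 95% interval of the log2 fold change from -0.47 to 0.89. This interval includes the value of 0.76 found in bone. For *Slc4a2* it ran from -0.47 to 0.55, below the 0.81 found in bone, and the difference of these effects was 0.77 (SE 0.30, 95% interval 0.14 to 1.40, adjusted p = 1.000). The interval of *Dcstamp* was the widest, from -2.44 to 3.92, and those of *Mmp9* (-1.85 to 3.64) and *Ocstamp* (-1.89 to 3.14) were nearly as wide. These intervals include both 0 and the values found in bone, so they cannot decide between them. The part of depth in their width was not tested. Replicate 3 was the highest library for 7 members within each genotype, among them *Acp5* only in *Fgfr2+/S252W* and *Dcstamp* only in *Fgfr2+/+* cartilage. It also had the highest summed osteoblast markers of each genotype, 20321 CPM in *Fgfr2+/S252W* and 12525 CPM in *Fgfr2+/+* cartilage. The part of bone tissue in these levels was not tested.

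**Figure D4:**
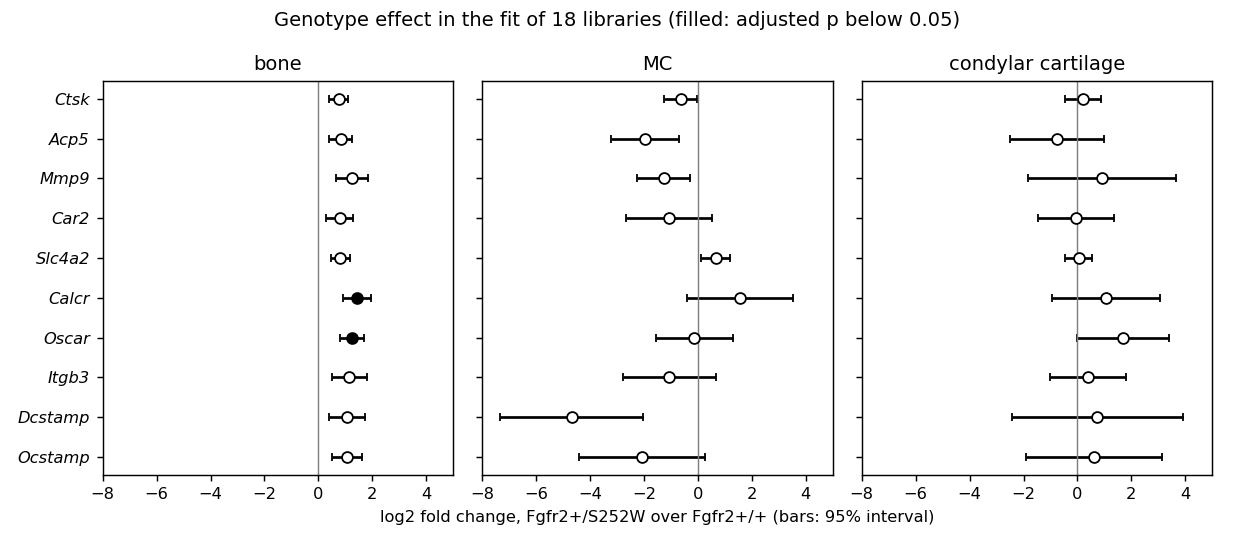
Log2 fold change of *Fgfr2+/S252W* over *Fgfr2+/+* for the 10 genes in bone, MC and condylar cartilage, from the fit of 18 libraries (n = 3 per group), with bars for 95% intervals and filled points for adjusted p below 0.05. In bone all intervals lie above 0 and *Calcr* and *Oscar* are filled, in MC 8 of 10 points lie below 0, and in condylar cartilage 9 intervals cross 0 and that of *Oscar* starts just above it.

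Whether the effects in bone and MC differ was tested as an interaction. In 3 members, *Acp5*, *Mmp9* and *Dcstamp*, the mutants were higher in bone and lower in MC without overlap in either tissue, as in 0.557% of all genes. No member passed with limma-voom, where 0.0362% of all genes did (7 members had an unadjusted p below 0.05, as had 10.5% of all genes), and none with edgeR. DESeq2 called *Acp5*, and 0.449% of all genes. The largest differences of effects in log2 units were those of *Dcstamp* (5.74, SE 1.31, adjusted p = 0.159), *Ocstamp* (3.13, SE 1.17, adjusted p = 0.367), *Acp5* (2.79, SE 0.65, adjusted p = 0.160) and *Mmp9* (2.50, SE 0.55, adjusted p = 0.153). Without *Fgfr2+/+* MC replicate 1 none passed, and the differences were 4.52 for *Dcstamp*, 2.81 for *Ocstamp*, 1.93 for *Acp5* and 2.01 for *Mmp9*. Over all fits without single libraries they ran from 4.52 to 7.13, 2.46 to 3.69, 1.93 to 3.10 and 2.01 to 2.93, in the same order. Without *Fgfr2+/+* MC replicate 3, *Mmp9* and *Dcstamp* passed (adjusted p = 0.0215 and 0.000727), where 0.0945% of all genes did, and without *Fgfr2+/+* MC replicate 2 *Ctsk* did (adjusted p = 0.0438), where 0.117% of all genes did. For bone against condylar cartilage, too, no member passed (1 with an unadjusted p below 0.05, as had 2.97% of all genes, edgeR 0, DESeq2 0), and 0% of all genes did.

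The levels were also set side by side between tissues, in *Fgfr2+/+* embryos. *Calcr*, *Oscar*, *Dcstamp* and *Ocstamp* passed the filter only through their level in bone. The members' counts and adjusted p here are therefore a description and support nothing. All 10 were higher in bone than in MC, where 17.8% of genes were, and than in condylar cartilage, where 18.8% were (limma-voom with the embryo as a random block, adjusted p below 0.05). In neither comparison did any member's libraries overlap, which held for 22.1% and 25.6% of genes in this direction. The log2 fold change of bone over MC ran from 0.89 (*Slc4a2*, SE 0.23, adjusted p = 0.00674) to 4.21 (*Ocstamp*, SE 0.73, adjusted p = 0.000271) apart from *Calcr*, whose value against libraries at 0 is given as a bound, and that of bone over condylar cartilage from 1.17 (*Slc4a2*, SE 0.22, adjusted p = 0.000261) to 8.79 (*Mmp9*, SE 1.02, adjusted p = 1.29e-06). That value of *Mmp9* was 7.61 without *Fgfr2+/+* condylar replicate 2, which had 1 *Mmp9* fragment, and 9.49 without replicate 3. For *Ocstamp* in bone over MC it ran from 3.61 to 4.56 without single libraries. Without *Fgfr2+/+* MC replicate 1 all 10 still passed in bone over MC, where 18.7% of genes were higher, with *Acp5* at 4.29 in place of 3.44. *Dcstamp* was at 2.54 in bone over MC, at 3.76 without *Fgfr2+/+* MC replicate 1 and at 1.16 without replicate 3. It did not pass with DESeq2 (adjusted p = 0.272), which called the other 9 members, and 16.6% of genes as higher.

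*Slc4a2*, an exchanger that many cell types use, was the most evenly spread, with 27.3 ± 5.68 CPM in *Fgfr2+/+* bone, 14.6 ± 2.48 CPM in MC and 12.0 ± 1.51 CPM in condylar cartilage. *Calcr*, the member with the lowest level in bone, had 0 fragments in the 3 *Fgfr2+/+* MC libraries and in the 3 *Fgfr2+/+* condylar libraries. Set against the 3 counts per library that a count of 0 allows, its level in bone was at least 15.0-fold higher than in MC and at least 26.9-fold higher than in condylar cartilage, a bound for counting error only.

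In *Fgfr2+/S252W* embryos 1 and 2 fragments of *Calcr* were read in MC replicates 1 and 3 and 3 in condylar replicate 2. *Oscar* was also near its lower limit outside bone, with 0, 3 and 1 fragments in *Fgfr2+/+* condylar cartilage and 10, 6 and 7 in *Fgfr2+/+* MC, against 165, 162 and 254 in bone.

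MC and condylar cartilage differed for some members. *Acp5*, *Ctsk*, *Dcstamp*, *Mmp9*, *Ocstamp* and *Oscar* were lower in condylar cartilage than in MC of *Fgfr2+/+* embryos (6 of 10, where 19.9% of genes were lower). *Mmp9* was at 1.06 ± 0.884 CPM in condylar cartilage and 69.5 ± 39.4 CPM in MC (log2 fold change -6.57, SE 1.04, adjusted p = 4.37e-05). This was -5.41 without condylar replicate 2, the library with 1 *Mmp9* fragment, and -7.29 without condylar replicate 3. In *Fgfr2+/S252W* embryos 3 of 10 members passed in this contrast, *Ctsk*, *Mmp9* and *Slc4a2*, where 19.9% of genes were lower. *Acp5*, *Dcstamp*, *Ocstamp* and *Oscar* did not pass there. With the libraries of these 2 tissues alone, 3 of the 6 members kept by the filter passed in *Fgfr2+/+* embryos, where 18.6% of genes were lower. In *Fgfr2+/+* embryos *Ocstamp* did not pass without MC replicate 1, MC replicate 3, condylar replicate 1 or condylar replicate 2 (adjusted p from 0.101 to 0.169), nor with no filter (adjusted p = 0.0622). The other 5 members passed each time, where 20.4%, 18.9%, 17%, 17.1% and 13.8% of genes were lower in these fits. *Car2*, *Slc4a2*, *Calcr* and *Itgb3* did not pass in *Fgfr2+/+* embryos, with 95% intervals that all included 0.

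**Figure D5:**
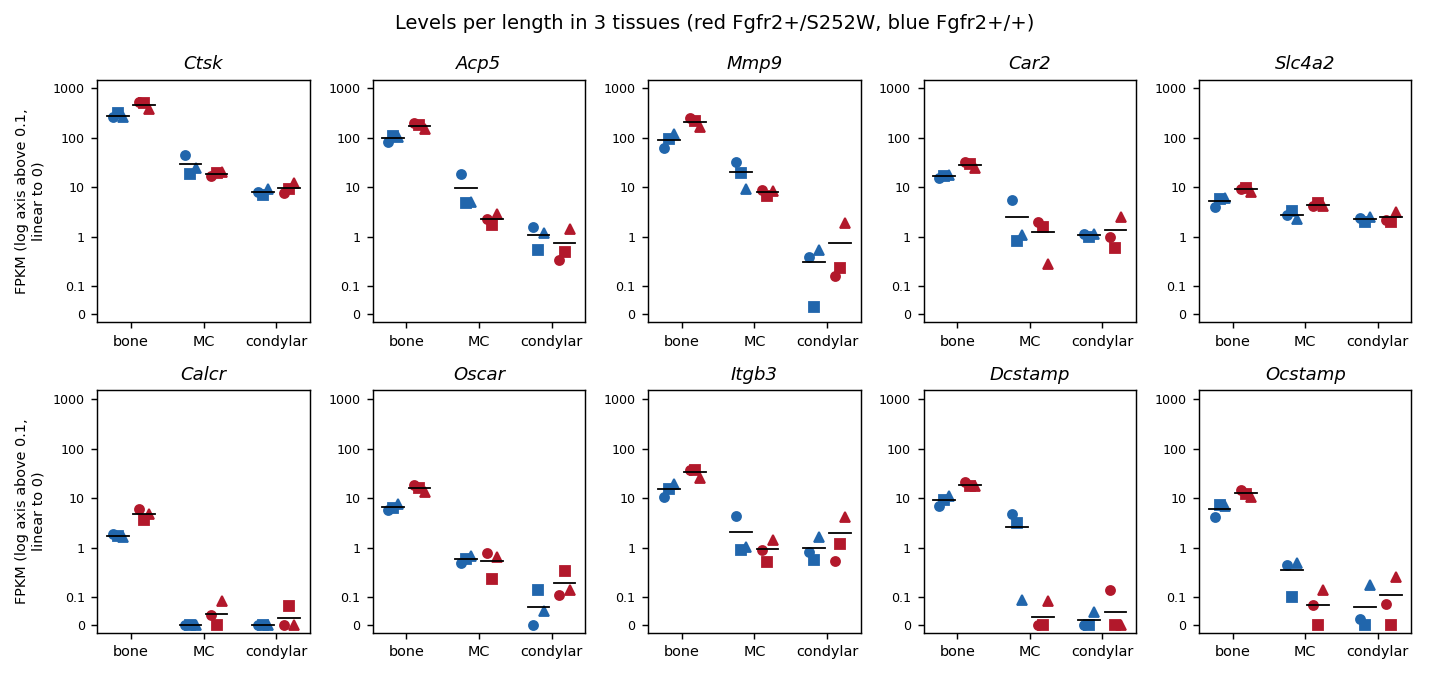
Level per length in FPKM (log axis above 0.1, linear to 0) of each gene in bone, MC and condylar cartilage, with red for *Fgfr2+/S252W*, blue for *Fgfr2+/+*, 1 point per library and black bars for means (n = 3). All genes are highest in bone, *Calcr* is at 0 in the blue MC and condylar libraries, and in MC the blue replicate 1 (circle) is the highest point for 6 genes.

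Ratios to *Ctsk* in MC varied from library to library. In *Fgfr2+/+* MC replicates 1 and 2, *Mmp9* was at 164 and 245 fragments per 100 *Ctsk* fragments and *Dcstamp* at 13.9 and 22.7, while in *Fgfr2+/+* bone they were at 55.7 to 102 and 3.62 to 5.67. In *Fgfr2+/+* MC replicate 3 the values were 85.3 for *Mmp9* and 0.490 for *Dcstamp*, the latter from 1 fragment. In *Fgfr2+/S252W* MC *Mmp9* was at 117, 76.3 and 94.9, against 97.5 to 111 in *Fgfr2+/S252W* bone, and *Dcstamp* had no more than 1 fragment in any library. These ratios were not tested.

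The genes most like the members' mean over the 18 libraries, by Pearson's r with their mean standardized log2 CPM, were *Xpr1* (0.985), *Serpinf1* (0.977), *Ptpn13* (0.976), *Capg* (0.973), *Csf1* (0.972), *Serpine2*, *Bmp3*, *Pros1*, *Mtss1* and *Prcp*. Such values reflect mostly the difference between tissues, which the libraries share. Over the 6 bone libraries the most alike were *Ptpn12* (0.997), *Gpr137b* (0.994), *Rac2* (0.993), *Ank* (0.993), *Emb* (0.993), *Xpr1* (0.993), *Tut7*, *Cox15*, *Gfra1* and *Galm*, and these share the difference between genotypes. Only *Xpr1*, the phosphate exporter, was on both lists of 10. Among the members themselves, *Ctsk* was closest to the mean of the set over 18 libraries (0.994) and *Acp5* over the bone libraries (0.996), and *Calcr* was the farthest from it in bone (0.906).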

How the data were processed

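Laser-captured mandibular bone, MC and condylar cartilage of 6 mouse embryos gave 18 RNA-seq libraries from amplified RNA. The authors trimmed reads with cutadapt, aligned them with STAR to mm10 (GRCm38) and deposited raw counts of fragments per gene, made by featureCounts (version 1.5.0-p1, Ensembl release 75, strand ignored, fragments shared by genes or sites not counted). The values are counts of single embryos, with 8218548 to 15585778 fragments per library. Floors from counts cover counting error only, and amplified reads are not independent molecules. Intervals come from the limma fits, whose standard errors include the spread between embryos of a group.

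From these counts, CPM and FPKM were scaled by TMM, and limma-voom (limma 3.58.1, edgeR 4.0.16, R 4.3.3) was fitted to all 18 libraries in 6 groups over 13818 genes, those that exceeded 1 FPKM in 50% or more of the libraries of some tissue. Tissue contrasts and interactions had the embryo as a random block, with the embryo read from the codes in the labels. p-values were adjusted by Benjamini and Hochberg over all genes tested, with a threshold of 0.05, and intervals are 95%. Ratios to *Ctsk* were compared by exact two-sided permutation tests. edgeR's quasi-likelihood test, DESeq2 1.42.0, other filters and scalings, single tissues and left-out libraries were alternatives. The limma fits of genotype effects, of bone over MC and of the bone and MC interaction were tested on simulated data. There the share of false calls stayed below the threshold for bone, but exceeded it in the fit of 18 libraries for MC, for bone over MC and for the interaction, and for condylar cartilage both in that fit and with its own libraries, so calls in these are less certain than their adjusted p. The members and lists were chosen with earlier results of these data known. Genes named beside the members are the 2 of each list with the highest mean CPM in bone, and the 10 most like the members. Others are said to be chosen after their values were seen.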

Additional observations from a re-analysis of the deposited data

Results flagged for a closer look

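For 3 members every *Fgfr2+/S252W* library was above every *Fgfr2+/+* library in bone and below every one in MC, a pattern that 0.557% of the 13818 genes tested showed. These genes were picked by that pattern, so their interaction values are a description. The difference of the 2 genotype effects, bone minus MC, was fitted as an interaction in limma-voom on 18 libraries. It was 5.74 log2 units for *Dcstamp* (SE 1.31, 95% interval 3.01 to 8.47, adjusted p = 0.159), 2.79 for *Acp5* (SE 0.65, 95% interval 1.44 to 4.14, adjusted p = 0.160) and 2.50 for *Mmp9* (SE 0.55, 95% interval 1.35 to 3.65, adjusted p = 0.153), and none passed the threshold over all genes. Without *Fgfr2+/+* MC replicate 1 the values were 4.52, 1.93 and 2.01. *Dcstamp* had 1 fragment in the highest mutant and 1 in the lowest control library of MC, so its separation there rests on the scaling of these libraries.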

How the results depend on the processing

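The higher levels of the members in *Fgfr2+/S252W* bone kept their direction for every member tested under every alternative run, while the number past the threshold did not keep. It was 2 of 10 in the fit of 18 libraries, 10 with bone libraries alone, with sample quality weights, with edgeR on bone libraries and with bone libraries without *Fgfr2+/+* replicate 3 (the last 2 chosen after seeing the data), 6 with no filter, 1 with DESeq2, 0 with edgeR on 18 libraries, 0 of the 6 members kept by a filter over 50% of all 18 libraries, and 0 to 4 when single libraries were left out. The cause was not tested. Of the 9 members set against *Ctsk*, 2 were apart between genotypes, and 2 to 8 without single bone libraries (chosen after seeing the data), the highest without *Fgfr2+/+* replicate 3. The share of all genes apart on that ratio was not computed. Genes called in bone were 25, and 14 with DESeq2's size factors, 5 with edgeR (187 on bone libraries), 10 with the filter over all libraries, 53 with no filter, 141 with bone libraries alone, 1370 with these without *Fgfr2+/+* replicate 3, 613 with quality weights and 1 to 91 without single libraries, the highest without *Fgfr2+/+* replicate 3.

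Equal replicate numbers between genotypes were not shown to mark pairs, since the mean correlation of their deviations was 0.0586 (bone), -0.0754 (MC) and 0.127 (condylar cartilage). With the replicate number as a block, genes called were 15 in bone and 1 in MC, and with the libraries of a tissue alone 554 in bone and 7 in condylar cartilage (chosen after seeing the data), while 2 of 10 members passed in bone, and 10 with bone libraries alone. The block with the embryo changed no count of members past the threshold in the tissue contrasts.

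In MC 2 members passed with DESeq2, 1 with edgeR and 0 to 1 without single libraries (1 without *Fgfr2+/+* MC replicate 3), and genes called were 441 with DESeq2, 63 with edgeR, 45 with no filter and 0 to 75 without single libraries. In condylar cartilage DESeq2 called 3 genes. With DESeq2 9 members were higher in bone than in MC, all but *Dcstamp*. With the filter over all libraries 6 members, all that it kept, were higher in bone than in MC and than in condylar cartilage. The shares of all genes under that filter are not given here, so its counts of members are a description. Condylar cartilage was below MC for 3 members with that filter. It was so for 3 with the libraries of these tissues alone (18.6% of genes) and 3 in *Fgfr2+/S252W* embryos (19.9% of genes). For the interaction of bone and MC 1 member passed with DESeq2, 1 with no filter and 0 to 2 without single libraries (2 without *Fgfr2+/+* MC replicate 3, 1 without *Fgfr2+/+* MC replicate 2), and genes called were 62 with DESeq2, 1 with edgeR, 16 with no filter, 2 with the libraries of these tissues alone, 3 with quality weights and 0 to 16 without single libraries. For bone and condylar cartilage DESeq2 called 5 genes and quality weights 9.

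Changes of sign were found in log2 fold changes that did not pass the threshold, and the cause was not tested. Without single libraries, the genotype effect in MC ran from -1.62 to 0.053 for *Car2* and from -0.43 to 0.28 for *Oscar* (0.013 with DESeq2). In condylar cartilage it ran from -0.31 to 1.60 for *Mmp9*, -0.48 to 0.35 for *Car2*, -0.10 to 0.16 for *Slc4a2* (-0.054 with quality weights), -0.24 to 1.20 for *Itgb3*, -0.16 to 1.35 for *Dcstamp* and -0.29 to 1.82 for *Ocstamp*. *Car2* there was at 0.23 with edgeR, 0.26 with edgeR on condylar libraries, 0.27 with DESeq2, 0.14 with the replicate block and 0.15 with the block on condylar libraries. Condylar cartilage against MC was 0.075 in *Fgfr2+/S252W* embryos for *Car2*, with -1.52 to 0.16 without single libraries, 0.37 in *Fgfr2+/S252W* embryos for *Itgb3*, and 0.018 with edgeR and 0.00 with DESeq2 for *Calcr*.

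Bone minus MC ran from -0.033 to 0.27 for *Slc4a2* and from -0.55 to 0.36 for *Calcr* (0.094 with no filter). Bone minus condylar cartilage ran from -0.36 to 1.52 for *Mmp9*, -0.37 to 1.22 for *Calcr*, -1.13 to 0.39 for *Oscar*, -0.046 to 1.38 for *Itgb3*, -0.30 to 1.21 for *Dcstamp* and -0.78 to 1.34 for *Ocstamp*. With edgeR it was -1.84 for *Calcr* and -0.72 for *Dcstamp*, with DESeq2 -0.82 and -0.32, and with quality weights -0.43 for *Calcr*.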
